A study of Mus musculus with 10 samples.

Results

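1810009J06Rik and Gm2663 are 2 trypsinogen-like genes on mouse chromosome 6 whose RNA had been seen in splenic T cells of this series. They were taken by name from the 31053 genes of each single-cell count matrix, of which 19038 had at least 1 UMI (unique molecular identifier, 1 counted RNA molecule). They were chosen by their measured level in T cells of these mice and by a link with Il7r and Cxcr3, so levels by cell class and that link are given as descriptions without a test. The libraries came from spleens of 3 BXD2-p19-/- mice, which lack the p19 subunit of interleukin-23 (numbers 1 and 2 female, number 3 male), and of 2 female BXD2-WT mice. BXD2 is a recombinant inbred strain with spontaneous germinal centers and autoantibodies, and both groups carry that background. Each mouse gave 1 library of B and T cells made with a droplet 5' kit, and neither age nor how p19 was deleted is given in the sources used here. Il23a, the gene of p19, had 0 UMIs in all 5 libraries, so its RNA does not check the genotype labels.

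Trypsinogens are inactive precursors of trypsin, a digestive serine protease that acinar cells of the pancreas secrete. In the mouse the trypsinogen genes lie inside the T cell receptor beta locus, among and behind its variable (Trbv) segments. When a developing T cell builds a beta chain, it joins a Trbv segment to a diversity and a joining segment, and the DNA between them is lost from that chromosome, while DNA on the far side of the chosen segment stays. Trbv31 is the exception, since it joins by inversion.

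On GRCm38.p6 (mm10), 1810009J06Rik lies at chr6:40964772-40968427 and Gm2663 at chr6:40995822-40999479, both annotated as protein-coding and 27.4 kb apart. Trbv1 ends 72.9 kb before 1810009J06Rik. On the other side, Trbv2 starts 48.1 kb after the end of Gm2663, and the first diversity segment, Trbd1, 534 kb after it. Both genes therefore sit between Trbv1 and all other Trbv segments.

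The 150 bases before the start of 3 trypsinogen-family genes are shown from RefSeq, because these neighbours differed in their T cell RNA: Gm2663 (chr6:40999480-40999629, minus strand), its neighbour 2210010C04Rik (chr6:41035510-41035659, minus strand), and Prss2, which lies next to Trbd1 (chr6:41521626-41521775, plus strand). Capitals mark TATAAA, the core of a TATA box, on the strand of the gene.
Gm2663: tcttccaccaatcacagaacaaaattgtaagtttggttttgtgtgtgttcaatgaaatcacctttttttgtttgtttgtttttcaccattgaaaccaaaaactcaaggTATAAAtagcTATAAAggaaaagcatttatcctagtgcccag
2210010C04Rik: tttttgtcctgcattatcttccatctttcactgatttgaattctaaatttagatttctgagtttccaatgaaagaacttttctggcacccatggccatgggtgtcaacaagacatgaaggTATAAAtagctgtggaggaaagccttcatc
Prss2: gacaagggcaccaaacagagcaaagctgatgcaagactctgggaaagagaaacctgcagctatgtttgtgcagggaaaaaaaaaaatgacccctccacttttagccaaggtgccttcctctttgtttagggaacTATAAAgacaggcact

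Gm2663 held 2 copies of TATAAA, the first starting 42 bases before the gene, 2210010C04Rik held 1 copy 30 bases before, and Prss2 held 1 copy 16 bases before. The longest run that Gm2663 and 2210010C04Rik shared was 15 bases, aaggTATAAAtagct, around that motif. Of 12 trypsinogen-family genes looked for, 9 had an entry and 8 of those held TATAAA on the gene's strand, against 4.84% of all 32851 windows of this length. On either strand the share of windows was 7.57%. AGATAA, a motif of Gata factors (2.98% of windows on the gene's strand, 5.65% on either), and TGTGGT, a Runx motif (4.49% and 8.40%), were not among the letters of the Gm2663 window on either strand. 1810009J06Rik is among the 3 genes with no entry.

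The 5 libraries held 11355 barcodes and 69958493 UMIs, and 9200 cells passed the filters. Of these, 3759 were T cells (614, 432 and 856 in p19-/- 1, 2 and 3, and 1013 and 844 in WT 1 and 2), with a median of 3590 UMIs per cell. A BCR contig was found with 19.4% of T cell barcodes, from 7.94% in WT 2 to 39.3% in p19-/- 1, and 47 T cells carried a barcode seen in more than 1 library, 4 of them with a UMI of either gene. Each mouse is 1 replicate.

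Gm2663 RNA was in few T cells and high in many of these. It was detected in 190 of 3759 T cells (5.05%, 95% Clopper-Pearson interval 4.38 to 5.80%), which held 3506 UMIs. The shares were 5.86%, 4.63% and 6.19% in p19-/- 1, 2 and 3, and 4.94% and 3.67% in WT 1 and 2, so the groups overlapped. Among positive cells the median was 7 UMIs and the highest count 178; 112 cells had at least 5 UMIs and 15 at least 50. Where a count was 0, the share said to be allowed is 3 divided by the number of cells, which lies below the upper end of the Clopper-Pearson interval. Intervals and limits here cover counting error only.

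1810009J06Rik RNA was rarer still. It was detected in 41 T cells (1.09%, 0.784 to 1.48%) with 956 UMIs, and its shares by mouse were 1.95%, 0.694% and 1.29% for p19-/- 1 to 3 and 1.09% and 0.474% for WT 1 and 2. The median positive cell had 11 UMIs, 26 cells had at least 5, 7 had at least 50, and the highest had 156. The top 10 cells held 70.3% of its T cell UMIs, against 39.3% for Gm2663. A mouse's level therefore rested on few cells: a single cell gave 93.9% of the 1810009J06Rik UMIs of p19-/- 2, and 69.9% of those of WT 2.

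Cells of other lineages held little of either RNA, apart from a cluster of low-UMI cells. Among 4280 B-lineage cells, a number that leaves out that cluster and whose median depth of 8041 UMIs was above that of T cells, 6 had a Gm2663 UMI (0.140%, 0.0515 to 0.305%), never more than 2. None had 1810009J06Rik, which allows a share of up to 0.0701%. Among 788 myeloid, dendritic, neutrophil and erythroid cells (median depth 1740 UMIs), 1 had a Gm2663 UMI. The low-UMI cluster, 297 cells that grouped with B cells at a median of 676 UMIs, had Gm2663 in 15 cells (5.05%) and 1810009J06Rik in 2 cells. All 15 were among its 164 cells of p19-/- 3, and none had above 3 Gm2663 UMIs. The part of free RNA in these shares was not tested.

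The 2 RNAs met in the same cells. Of the 41 cells with 1810009J06Rik, 37 also had Gm2663, while 153 cells had Gm2663 alone. 1810009J06Rik was found in 33.3%, 10.0% and 20.8% of Gm2663-positive cells of p19-/- 1 to 3 and in 20% and 6.45% of those of WT 1 and 2. Among Gm2663-negative cells the share was 0.112% (4 of 3569). High Gm2663 did not bring 1810009J06Rik with it in most cells: of 112 cells with at least 5 Gm2663 UMIs, 77 had 1810009J06Rik at 0. The reverse case was 1 effector-memory-like cell of WT 2 with 72 UMIs of 1810009J06Rik and 0 of Gm2663. The 2 genes are close relatives, and how reads that match both were assigned was not examined.

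**Figure D1:**
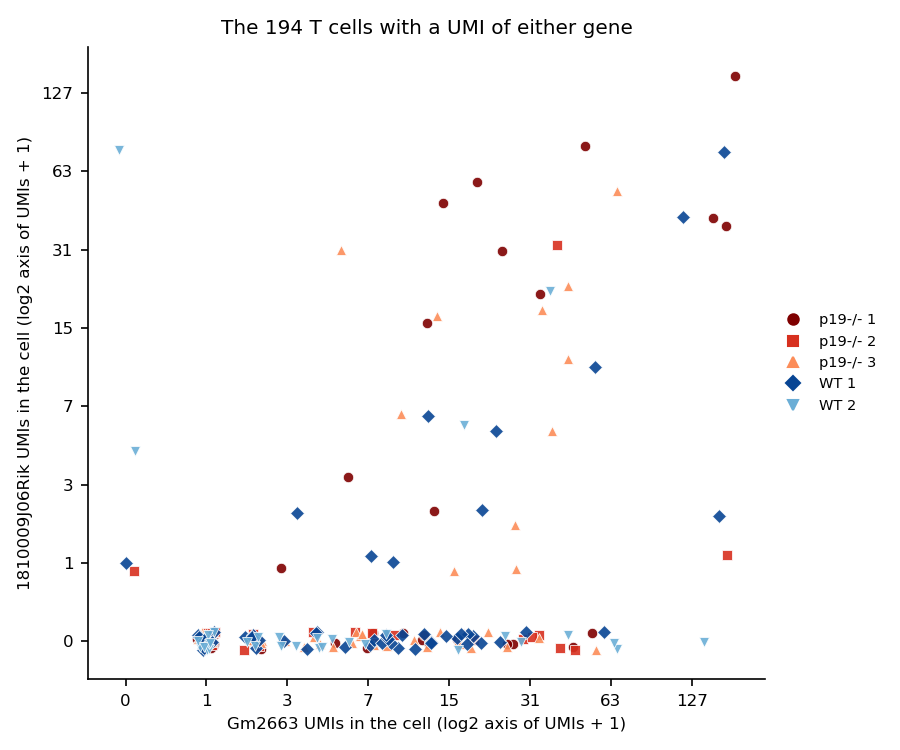
Each of the 194 T cells with a UMI of either gene is 1 point, placed by its Gm2663 UMIs (x) and 1810009J06Rik UMIs (y), both on a log2 axis of UMIs + 1 with a small random shift so that points do not hide each other, and marked by mouse. Most points lie along the x axis at 0 UMIs of 1810009J06Rik, 37 cells hold both RNAs, and the highest cells reach 178 and 156 UMIs.

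Positive cells had slightly more RNA than other T cells, with a median of 4186 against 3551 UMIs per cell. Their mitochondrial share was 3.6% against 3.48%, and a BCR contig accompanied 13.4% of them against 19.8%. Comparisons between cells were therefore also made with every cell thinned to 2000 UMIs, which left 3302 T cells, 145 of them positive for either gene.

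T cells were grouped without the 2 genes, Il7r, Cxcr3 or receptor segments. Clusters were named only from marker lists, and where 2 names tied or none fitted, they are called unnamed with 2 of their leading genes. Every T follicular helper (Tfh)-like cluster had at least 9 of 10 Tfh markers at 1.5-fold or more over all other cells, B and myeloid cells among them. The same list named these clusters, so this is no independent support. The Pde2a Tcf7 and Gal Sh2d1a clusters were named from 1 marker among their 10 leading genes. The effector-memory-like cluster had 6 of 10 markers of its list (S100a4, S100a6, Id2, Nkg7, Itgb1, Ahnak), and its defining chemokine gene Ccl5 was not among them.

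Gm2663 was found in activated T cell groups, and no UMI was counted in regulatory or naive ones. In effector-memory-like cells (481 cells) the share was 16.5%, 7.35% and 9.26% in p19-/- 1, 2 and 3, and 15.2% and 6.48% in WT 1 and 2, or 10.9% ± 4.59 (SD, n = 5). In Tfh-like cells (1761 cells), the helpers of germinal center B cells, it was 5.45%, 5.97% and 9.14% in p19-/- and 5.67% and 5.11% in WT, or 6.27% ± 1.64 (SD, n = 5). The effector-memory-like share was the higher in each of the 5 mice, by least in p19-/- 3, and the ranges over mice overlapped. At 2000 UMIs per cell it was the higher in only 3 of them: 16.0%, 7.46%, 6.86%, 11.7% and 2.86% against 4.42%, 3.74%, 7.67%, 5.93% and 4.32% in Tfh-like cells, so the order turned in p19-/- 3 and WT 2.

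The Tfh-like class was not uniform. Its Apoc4 Ctsl cluster (436 cells) had Gm2663 in 6.90%, 4.55% and 21.9% of cells in p19-/- and 13.2% and 11% in WT (mean 11.5%), and its Il21 Spp1 cluster (394 cells) in 10.0%, 10.0% and 15.1%, and 9.52% and 5.36% (mean 9.99%). Il21 encodes the helper cytokine interleukin-21. The Pde2a Tcf7 cluster (392 cells) averaged 3.13% and the Pdcd1 Skap1 cluster (226 cells, median 1976 UMIs) 4.31%, with no positive cell in either WT mouse for the latter. In the Gal Sh2d1a cluster none of 313 cells was positive, which allows up to 0.958%, at a median depth of 3166 UMIs close to that of the effector-memory-like cells (3402).

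No Gm2663 UMI was found in 474 Treg-like cells, the Foxp3-expressing suppressors, at a median depth of 3104 UMIs, which allows a share of up to 0.633%. The same held for 364 cells of the Foxp3 Sh2d1a cluster (up to 0.824%), which carried both Treg and Tfh markers, for 146 naive-like cells (up to 2.05%) and for 117 cells of the Cd8b1 Cd8a cluster (up to 2.56%), the deepest of these at 6369 UMIs. In the other small clusters the values spread widely. The Egr2 Nr4a1 cluster, led by immediate early genes, had 12% ± 10.7 (SD, n = 5; 126 cells) and the dividing Mki67 Top2a cluster 8.58% ± 6.84 (SD, n = 5; 97 cells). In the Gzmk Ncr1 (112 cells) and Lrig1 Malat1 (81 cells) clusters all positive cells came from p19-/- 3. The means of the 5 highest groups, from 8.58% to 12%, differed by less than their SDs.

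Most 1810009J06Rik UMIs lay in effector-memory-like cells. In effector-memory-like cells it was found in 11.8%, 2.94% and 3.70% of cells in p19-/- 1, 2 and 3 and in 4.46% and 1.85% in WT 1 and 2 (4.95% ± 3.93, SD, n = 5). In Tfh-like cells the shares were 0.641%, 0.498% and 0.831%, and 0.840% and 0.487% (0.659% ± 0.172, SD, n = 5), so no mouse's Tfh-like share reached the lowest effector-memory-like share. Of its 956 T cell UMIs, 791 were in the 23 positive effector-memory-like cells, and 502 of these came from 10 cells of p19-/- 1. In the dividing Mki67 Top2a cluster 3 of 97 cells were positive, with 93 UMIs (6.45% of cells in WT 1 and 3.33% in p19-/- 3). The Gzmk Ncr1 and Lrig1 Malat1 clusters had 2 and 1 positive cells, all from p19-/- 3. It was not detected in the Treg-like, naive-like, Foxp3 Sh2d1a, Cd8b1 Cd8a and Egr2 Nr4a1 cells.

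**Figure D2:**
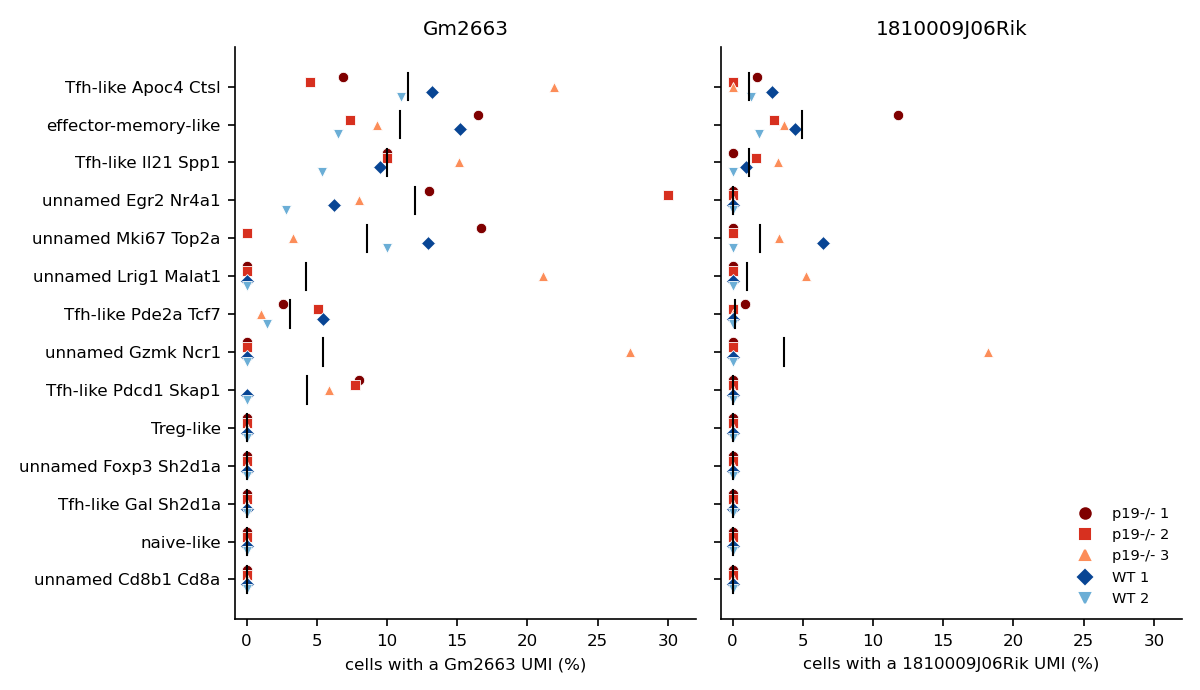
Share of cells with a Gm2663 UMI (left) and a 1810009J06Rik UMI (right), in percent, for each of the 14 T cell clusters (rows); points are the 5 mice and vertical bars the mean over mice. Both genes were at 0 in all mice in the bottom 5 rows, and the 11.8% point of p19-/- 1 is the highest 1810009J06Rik share in effector-memory-like cells.

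Il7r encodes the interleukin-7 receptor of naive and memory cells, and Cxcr3 a chemokine receptor of effector cells. With cells thinned to 2000 UMIs, a UMI of either trypsinogen-like gene was found in 6.38%, 7.76% and 5.74% of Il7r-positive cells in p19-/- 1, 2 and 3, against 5.27%, 2.45% and 4.72% of Il7r-negative cells. In WT 1 and 2 it was the other way round, with 3.54% and 0.840% against 5.08% and 3.21%. The mean difference of 0.703 points ± 3.00 (SD, n = 5) was smaller than its spread. It was 2.65 points ± 7.29 within effector-memory-like cells and -0.614 points ± 5.43 within Tfh-like cells, where Il7r was rare. For 1810009J06Rik alone the Il7r-positive share was higher in 4 of 5 mice, by 1.26 points ± 1.56. Most of its positive cells were effector-memory-like, a class with Il7r in 53.8% of cells before thinning, against 8.23% of Tfh-like cells. The part of class was not tested.

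The link with Cxcr3 was clearer in p19-/- mice. Cxcr3-positive cells were positive for either gene in 10.4%, 9.09% and 10.2% in p19-/- 1, 2 and 3, against 4.42%, 2.77% and 3.91% of Cxcr3-negative cells. In WT 1 and 2 the shares were 5% and 2.19% against 4.85% and 2.99%, and the mean difference over the 5 mice was 3.59 points ± 3.59 (SD). Whether the genotypes differ in this link was not tested. Within Tfh-like cells the Cxcr3-positive share was higher in 4 of 5 mice (5.16 points ± 4.41), but within effector-memory-like cells, 53.0% of which had Cxcr3 before thinning, the mean difference was -1.30 points ± 8.48. For 1810009J06Rik alone it was higher in 5 of 5 mice over all T cells (1.74 points ± 1.34), from 13 and 21 positive cells in all. Of these, 22 were effector-memory-like, a class with Cxcr3 more often than Tfh-like cells (53.0% against 18.8% before thinning). The part of class in this value was not tested.

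Each T cell was called for the Trbv segment with most UMIs (at least 2, no tie), which gave a call in 3149 of 3759 T cells. Gm2663 RNA was concentrated in cells that used Trbv2 or Trbv3, the nearest segments behind it. This pattern was noticed in these data and is given without a test. Gm2663 was detected in 45 of 228 Trbv2 cells (19.7%, interval 14.8 to 25.5%) and 68 of 407 Trbv3 cells (16.7%, 13.2 to 20.7%). These segments made up 20.2% of all called T cells but 67.3% of the called Gm2663-positive cells, and 73.3% of those with at least 5 UMIs. For 1810009J06Rik the share was 56.8% of 37 called cells, 4 with Trbv2 and 17 with Trbv3.

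In every mouse the share in Trbv2 or Trbv3 cells was above that of other called cells. It was 20%, 11.7% and 25.0% in p19-/- 1, 2 and 3 and 17.5% and 14.6% in WT 1 and 2, against 3.00%, 3.05%, 2.69%, 1.71% and 1.2% for cells called for another segment, with no overlap. Among effector-memory-like cells 29 of 97 Trbv2 or Trbv3 cells (29.9%) were positive against 18 of 326 others (5.52%). Among Tfh-like cells it was 67 of 330 (20.3%) against 30 of 1215 (2.47%). The share reached 42.9% (27 of 63) in the Il21 Spp1 cluster and 33.7% (32 of 95) in the Apoc4 Ctsl cluster. In other groups cells with these segments were negative: none of 64 Treg-like, 60 Foxp3 Sh2d1a and 59 Gal Sh2d1a cells with Trbv2 or Trbv3 had a Gm2663 UMI, which allows 4.69%, 5% and 5.08%.

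**Figure D3:**
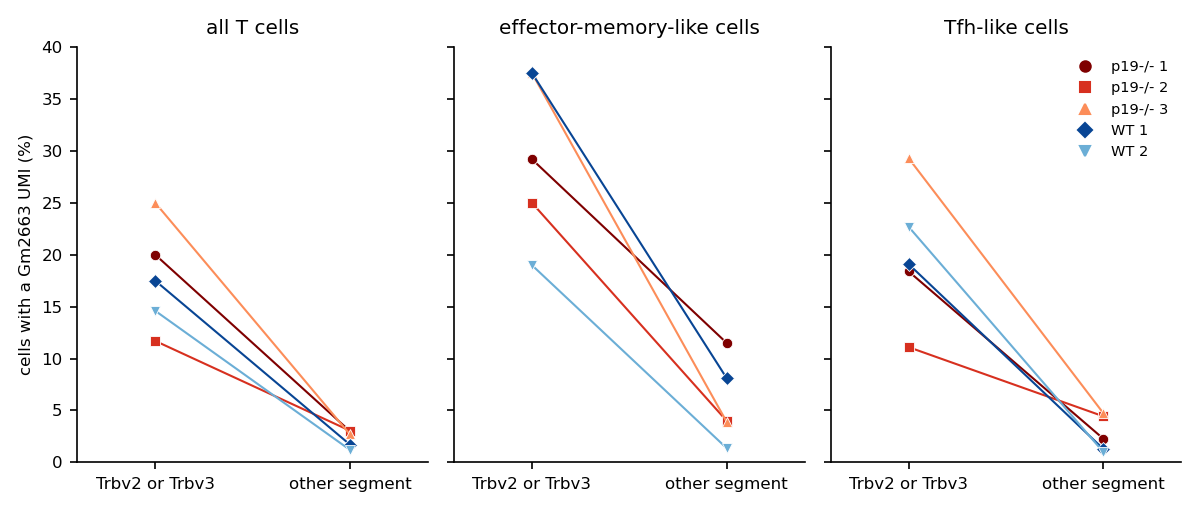
Share of cells with a Gm2663 UMI, in percent, among T cells called for Trbv2 or Trbv3 and among those called for another segment, in all T cells, effector-memory-like cells and Tfh-like cells; each line joins the 2 values of 1 mouse. All 5 lines fall from left to right in all 3 panels, from 11.7% or more to 3.05% or less in all T cells.

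Along the locus the share was lower for segments farther from the 2 genes. Trbv4 and Trbv5 cells, whose segments start 60 and 62.9 kb behind Gm2663, were positive in 5.26% each (8 of 152 and 4 of 76). Over the 1889 cells called for Trbv12-1 to Trbv30 the share was 1.96% (1.38 to 2.69%), and in 135 Trbv31 cells 1.48%. Trbv15 stood above its neighbours at 7.38% (9 of 122), but 7 of the 9 cells were from WT 1, and 6 of these 7 shared the alpha segment Trav4-4-dv10. The Trbv2 and Trbv3 positives were spread over many alpha segments: 29 Trbv2 positives with a call for an alpha (Trav) segment used 21 different ones, the largest mouse and Trav pair holding 2 cells, and 41 Trbv3 positives used 20, the largest holding 4.

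**Figure D4:**
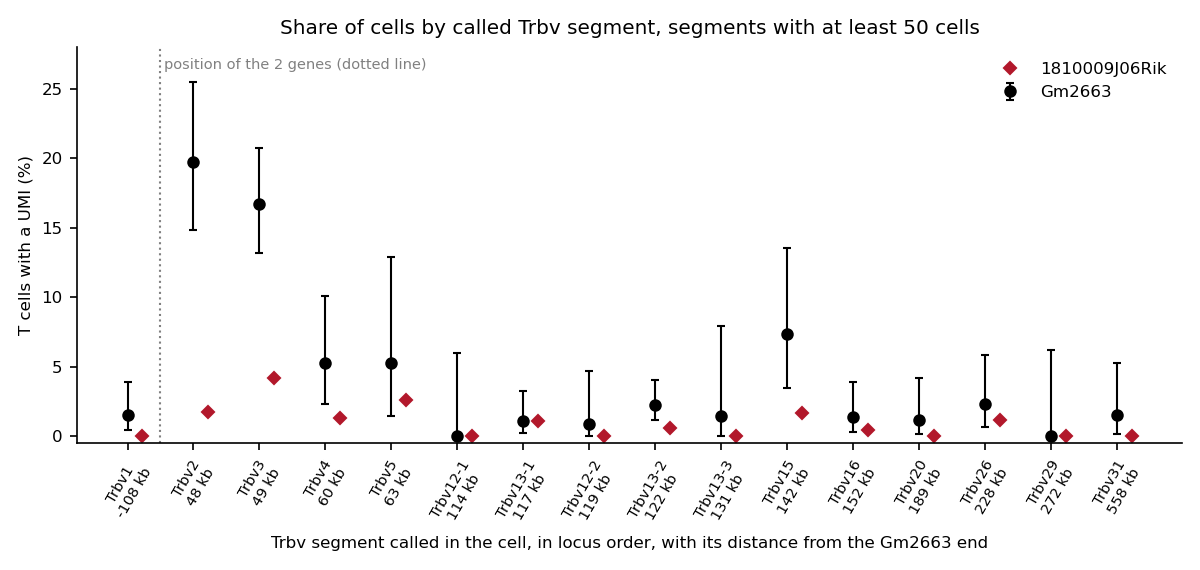
Share of T cells with a Gm2663 UMI (black circles, bars are 95% Clopper-Pearson intervals) and with a 1810009J06Rik UMI (red diamonds, no interval drawn), in percent, by called Trbv segment in locus order, with the distance from the Gm2663 end in kb under each name. Trbv2 and Trbv3 stand at 19.7% and 16.7%, and the interval of Trbv1, on the other side of the genes, ends at 3.86%.

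A minor Trbv2 or Trbv3 transcript went with the same difference. Among cells called for another segment, 88 also had a Trbv2 or Trbv3 UMI, and 13 of these (14.8%, 8.11 to 23.9%) had Gm2663. Of the 2426 without such a UMI, 42 did (1.73%, 1.25 to 2.33%). The shares were 14.3%, 30.0%, 13.3%, 21.4% and 5% against 2.59%, 2.11%, 2.12%, 1.27% and 1.07% in p19-/- 1, 2, 3 and WT 1, 2, higher in 5 of 5 mice though from 10 to 30 cells each. Doublets of a Trbv2 or Trbv3 cell with another T cell would also hold both RNAs. The cells were not thinned here, and deeper cells would show both RNAs more often as well. The parts of doublets and of depth were not tested. The total of Trbv RNA was 2261 CPM in Gm2663-positive and 2318 CPM in negative T cells (CPM are counts scaled to a common total), but within Tfh-like cells it was lower in positive cells in 5 of 5 mice (1806, 1913, 1764, 1955 and 2533 against 2604, 2585, 2576, 2617 and 2977 CPM). That of the constant genes Trbc1 and Trbc2 was 617 and 446 CPM over all T cells. Within Tfh-like cells it went the other way from Trbv RNA except in WT 2. There it was 767, 627, 580, 724 and 414 against 592, 489, 555, 503 and 457 CPM. Positive and negative cells also used different segments, and the part of this in the Trbv total was not tested.

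Trbv1 cells were compared with cells called for any other segment, since the 2 genes lie between Trbv1 and the rest. This used UMIs summed per mouse, edgeR's quasi-likelihood test with mouse as a block and Benjamini-Hochberg adjustment over 9289 genes, of which 9 (0.0969%) were called. Gm2663 was found in 4 of 262 Trbv1 cells (1.53%, 0.418 to 3.86%) with 14 UMIs, against 164 of 2887 other cells (5.68%, 4.86 to 6.59%) with 3250. By mouse its level was 0, 70.4 and 2.88 CPM in Trbv1 cells of p19-/- 1, 2 and 3 and 0 and 22.5 CPM in those of WT 1 and 2. In other cells it was 418, 216, 220, 316 and 150 CPM, above the Trbv1 value in each mouse, although the share of positive cells was lower in Trbv1 cells in only 3 of 5 mice (6.25% against 5.09% in p19-/- 2 and 4.26% against 3.83% in WT 2, from 1 and 2 cells). The log2 difference was -4.38 ± 0.39 (SE of the fit) with an edgeR adjusted p of 5.95e-07. The gap varied widely over mice, from 70.4 against 216 CPM to 0 against 418 CPM. Neither the SE nor the p-value is therefore read as a measure of the spread between mice.

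1810009J06Rik had 0 UMIs in the 262 Trbv1 cells of the 5 mice, against 849 UMIs in 37 of 2887 other cells. Other cells were at 65.9 CPM, and the edgeR adjusted p was 1.97e-06. The UMIs lay in few cells, so no fold is given: a few positive Trbv1 cells could have brought a similar level. As a share of cells, 0 of 262 allows up to 1.15%, and 37 of 2887 is 1.28%, and their intervals overlapped, so a difference in the share of positive cells was not detectable at this depth. When Trbv2 and Trbv3 cells were left out of the comparison group, an alternative chosen after seeing the data, the Gm2663 difference was -2.42 with an edgeR adjusted p of 0.164, and that of 1810009J06Rik kept an adjusted p of 0.0071. DESeq2 gave Gm2663 an adjusted p of 0.145, and without the mouse block edgeR gave 1810009J06Rik 1.00.

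The neighbouring genes of the locus behaved otherwise. Prss2, an anionic trypsinogen at the far end of the cluster, was detected in 183 T cells (4.87%) at low counts (387 UMIs). Gm2663 was in 8 of these 183 cells, a share close to the 5.05% of all T cells (190 of 3759). Its share was alike in Trbv2 (5.26%), Trbv3 (5.16%) and Trbv1 cells (4.96%). It was 5.41% in effector-memory-like and 6.53% in Tfh-like cells. The immediate neighbour 2210010C04Rik, whose promoter is shown above, had 7 UMIs in 3 T cells, and Try10 had 5 UMIs. Prss58, Prss1, Prss3, Try4, Try5, Gm5771 and Gm10334 had none in any of the 11355 barcodes. Of 12 exocrine pancreas genes in the files, 9 had no UMI, and Cela1, an elastase also expressed outside the pancreas, had 351. The recombinase gene Rag2 was at 0 and Rag1 had 5 UMIs.

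Cells with a UMI of either gene were set beside all other T cells at 2000 UMIs per cell, as a description. Of 5961 genes measured, 98 (1.64%) were at least 1.5-fold higher in positive cells in 5 of 5 mice, and 205 (3.44%) at least 1.5-fold lower. The 5 genes with the largest ratios among the higher ones were S100a5, Kif15, 1700019D03Rik, Stfa3 and Elmod1. Kif15, a mitotic kinesin, was found in 22.8% of the 145 positive and 3.67% of the 3157 other cells, with 20%, 12.5%, 13.5%, 37.5% and 22.7% against 4.05%, 3.63%, 4.03%, 4.23% and 2.53% in p19-/- 1, 2, 3 and WT 1, 2. S100a5, of the S100 calcium-binding family, was in 11.7% against 1.2%, and 1700019D03Rik in 32.4% against 9.50%. The proliferation gene Mki67 did not pass this rule over all T cells (8.97% against 4.97%).

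The 5 genes with the largest ratios in the other direction were Ccl5, Gm30211, Foxp3, Nkg7 and Cd81. Foxp3, the Treg transcription factor, was in 1.38% of positive and 12.7% of other cells. The chemokine gene Ccl5 was in 0.690% and 7.79%, Nkg7 of cytotoxic granules in 2.07% and 7.89%, and the tetraspanin gene Cd81 in 5.52% and 22.2%. Gm30211 was in 9.66% and 31.4%. Among the Treg markers Foxp3 and Ikzf2 were lower by the rule, but Ctla4 (mean log2 ratio 0.08) and Capg (0.27) were not, nor was the naive marker Ccr7 (0.71). The Tfh marker Cxcr5, which guides cells into follicles, was in 5.52% and 20.2%. Tfh markers went both ways: of 10 measured, 2 were lower by the rule (Cxcr5 and Sh2d1a). Another 2 were higher (Sostdc1, mean log2 ratio 0.84, and Tbc1d4, 0.63). Since Treg-like and Cd8b1 Cd8a cells had no positive cell, these values in part restate the class differences.

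Within a class the same contrast kept several of these genes. Among 85 positive and 1497 other Tfh-like cells, Kif15 was in 14.1% and 3.81%, 1700019D03Rik in 27.1% and 8.82%, and Nrn1 (neuritin) in 27.1% and 9.55%, each higher in 5 of 5 mice. Mki67 passed the rule here (10.6% and 3.01%), but among effector-memory-like cells it was in 0 of 42 positive and 19 of 407 other cells (4.67%). Cxcr5 was in 8.24% and 29.5%, with 7.69%, 0%, 12%, 8.33% and 6.25% against 24.9%, 25.6%, 31.6%, 29.7% and 33.3% over the mice in the same order. Phf1, a Polycomb-associated gene, was in 0 of 85 and in 9.49%, while in effector-memory-like cells it was in 23.8% of positive and 10.3% of other cells, higher in 4 of 5 mice. In this class 91 of 5928 genes (1.54%) were higher by the rule and 206 (3.48%) lower. Among 42 positive and 407 other effector-memory-like cells, Kif15 was in 38.1% and 8.35% and S100a5 in 28.6% and 3.69%, each higher in 4 of 5 mice, and the integrin gene Itgb7 in 4.76% and 34.6%, from 5 to 13 positive cells per mouse. There 84 of 5757 genes (1.46%) were higher and 240 (4.17%) lower. With so few positive cells, 1 UMI was 38.5 to 100 CPM. The median log2 ratio of all genes was itself below 0, at -0.26 here and -0.15 in Tfh-like cells. The larger number of lower genes is therefore not read as a property of the cells.

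Listed gene groups moved little as a whole between positive and other T cells. Of 8 measured genes linked with Il7r-expressing T cells, 1 was higher by the rule (Cd44, mean log2 ratio 0.60) and 1 lower (Lef1, -1.16), with a list median of -0.38 against -0.08 for all genes. Of 9 measured genes linked with Cxcr3-expressing effectors, 1 was higher (S100a6, 1.02) and 3 lower (Ccl5, Nkg7 and Gzmk), with a median of 0.19. All 4 measured T cell markers missed the rule. Of 6 measured recombinase and beta locus genes, Runx3 and Bcl11b were lower and none higher, with a median of -0.36.

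Across 57 units of 1 cluster in 1 mouse with at least 20 cells, the gene with the level most like that of Gm2663 among 5996 was Kif15 (Pearson r = 0.77 on log2 CPM), followed by Vdr (0.74), Elmod1 (0.74), Bace2 (0.72) and Cd200 (0.70). For 1810009J06Rik it was Kif15 (0.67), Zbtb32 (0.61), Bace2 (0.55), Cst3 (0.52) and Cacna1d (0.51). The 2 genes themselves gave 0.68, while Il7r gave -0.19 with Gm2663 and 0.17 with 1810009J06Rik, and Cxcr3 0.19 and 0.38. Units of 1 mouse share a library, so these values only describe.

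Last, the genotypes were compared over mice, 3 p19-/- against 2 WT, to ask whether loss of p19 goes with the level of either RNA. Over all T cells Gm2663 was at 349, 195 and 187 CPM in p19-/- 1, 2 and 3 and at 282 and 127 CPM in WT 1 and 2. 1810009J06Rik was at 194, 14.8 and 46.1 CPM and at 42.6 and 25.6 CPM. The groups overlapped for both. The log2 difference, p19-/- over WT, was 0.27 ± 0.33 (SE) for Gm2663 with an edgeR adjusted p of 0.844 and 1.35 ± 0.75 for 1810009J06Rik with 0.626, in a fit that called 45 of 10450 genes (0.431%). Without p19-/- 1 the latter was -0.06. Both the number of positive cells and their UMIs varied: 1810009J06Rik had 12 positive cells with a median of 35.5 UMIs in p19-/- 1 and 11 with a median of 2 UMIs in WT 1.

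The share of T cells positive for either gene at 2000 UMIs was 5.46%, 3.98% and 4.89% in p19-/- and 4.87% and 2.85% in WT. The means of 4.78% ± 0.748 (SD, n = 3) and 3.86% ± 1.43 (SD, n = 2) gave p = 0.40 in an exact permutation test (two-sided, all 10 ways to split the mice), whose smallest possible p is 0.2. The share of T cells with a BCR contig, 39.3%, 27.8% and 19.3% in p19-/- against 13.6% and 7.94% in WT, also went with genotype. With these cells left out, the log2 difference over all T cells was 1.76 for 1810009J06Rik (edgeR adjusted p 0.504) and 0.63 for Gm2663 (adjusted p 0.659), neither past the threshold.

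Within effector-memory-like cells 1810009J06Rik was at 1644, 99.6 and 331 CPM in p19-/- and 155 and 176 CPM in WT, a log2 difference of 2.02 ± 0.71 (SE; edgeR adjusted p 0.386). Gm2663 was at 2309, 321 and 448 CPM and 838 and 125 CPM (1.07 ± 0.68, adjusted p 0.698). This fit called 30 of 5377 genes (0.558%). The high values are those of p19-/- 1, without which the differences were 0.38 and -0.34. Within Tfh-like cells 1810009J06Rik was at 3.12, 0.977 and 6.36 CPM in p19-/- and 8.76 and 14.2 CPM in WT, with no overlap in CPM but from 1 to 4 positive cells per mouse (-1.61 ± 0.51, adjusted p 0.234, in a fit that called 72 of 8837 genes, or 0.815%). The share of positive cells at 2000 UMIs went the other way, at 0.680%, 0.535% and 0.613% in p19-/- against 0.494% and 0.270% in WT, from 1 or 2 cells per mouse (two-sided exact permutation p = 0.2, the smallest possible). Gm2663 was at 75.8, 253 and 248 CPM, and 203 and 239 CPM (-0.20 ± 0.29, adjusted p 0.893). Neither gene passed the test for a genotype difference in all T cells or in either class. A test of whether the genotype difference itself differed between the classes, chosen after seeing the data, called 13 of 8008 genes (0.162%), 1810009J06Rik among them, and its log2 value was 3.6 ± 0.51 (SE, edgeR adjusted p 0.000100), or 1.94 with an adjusted p of 0.218 without p19-/- 1 and 3.25 with 0.0568 without WT 2.

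**Figure D5:**
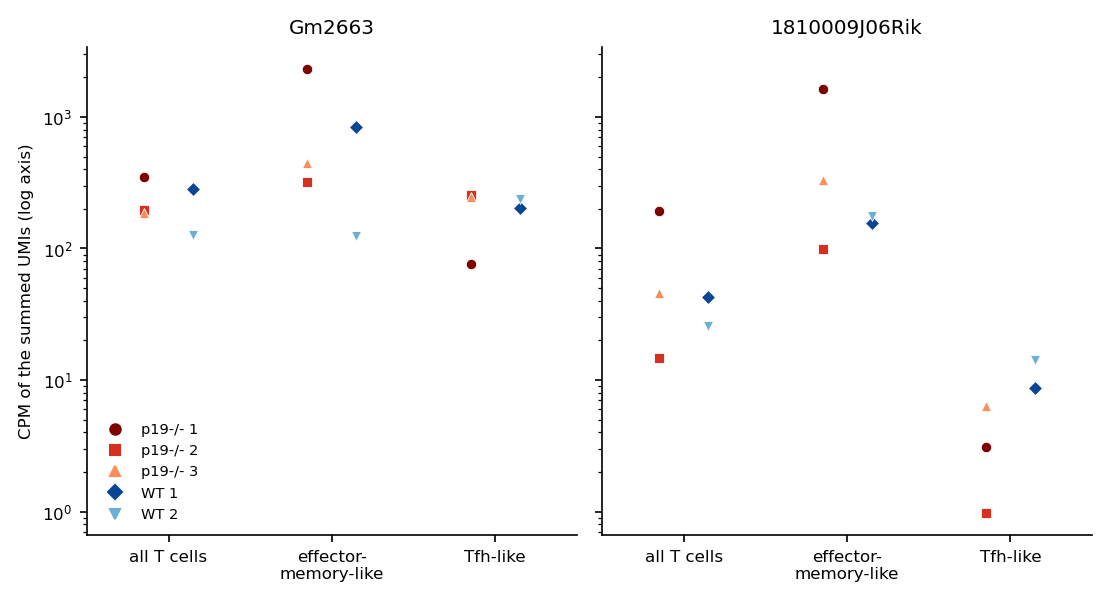
Level of Gm2663 (left) and 1810009J06Rik (right) in CPM of the summed UMIs, on a log axis, for each mouse in all T cells, effector-memory-like cells and Tfh-like cells; p19-/- mice are drawn to the left and WT mice to the right of each position. The groups overlap except for 1810009J06Rik in Tfh-like cells, where p19-/- reaches 6.36 CPM and WT starts at 8.76 CPM although the thinned share of positive cells had the opposite order, and p19-/- 1 stands highest in effector-memory-like cells at 2309 and 1644 CPM.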

How the data were processed

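RNA was measured per cell in 5 libraries, and the BCR V(D)J libraries of the same mice served only to mark barcodes with a contig. The authors deposited raw UMI counts per gene and barcode, not normalized, and contig tables with read and UMI counts. The submitters' processing notes name Cell Ranger 3.0.2, STAR and the build mm10. Barcodes with over 10% mitochondrial UMIs or under 200 genes were removed. Scrublet's own threshold marked only 28 doublets, so the expected number (0.8% per 1000 cells) with the highest scores was removed, 156 in all. Cells were clustered in scanpy 1.11.5 (Python 3.11.15; 2000 variable genes, 20 components and neighbours, Leiden resolution 1, leidenalg 0.10.2), and T cells again by themselves. Of 16 T clusters, 2 with markers of other lineages were set aside (76 cells). Summed counts were tested in edgeR 4.0.16 (R 4.3.3; TMM, filterByExpr, quasi-likelihood F test, Benjamini-Hochberg at 0.05) and checked in DESeq2 1.42.0. The edgeR fits of genotype over all T cells and of Trbv1 were tried on simulated negative binomial counts. DESeq2, the class fits, the interaction and genes whose UMIs lie in few cells were not simulated. CPM ratios between positive and other cells used a pseudocount of 20 CPM, and likeness 10 CPM. The genes, lists and comparisons were chosen with earlier results of these data known. Named genes are the 2 genes, Il7r, Cxcr3, receptor segments, listed genes, the 5 largest ratios per direction and the 5 most alike. Batch, strand and read assignment between gene copies are not given in the sources used here.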

Additional observations from a re-analysis of the deposited data

Results flagged for a closer look

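The genotype difference of 1810009J06Rik differed between classes in an interaction test chosen after seeing the data. In edgeR with mouse as a block, the log2 difference p19-/- over WT in effector-memory-like cells was 3.60 ± 0.51 (SE) above that in Tfh-like cells (adjusted p 0.000100, 13 of 8008 genes called, 0.162%). The underlying UMIs were few: 502, 32 and 124 in effector-memory-like cells of p19-/- 1, 2 and 3 and 57 and 76 in WT 1 and 2, against 4, 1, 9, 13 and 27 in Tfh-like cells. At 2000 UMIs per cell the share of positive Tfh-like cells was higher in p19-/- (0.680%, 0.535% and 0.613%) than in WT (0.494% and 0.270%), opposite to the CPM there. Without p19-/- 1 the difference was 1.94 (adjusted p 0.218) and without WT 2 it was 3.25 (adjusted p 0.0568). For Gm2663 the same interaction was 1.16 ± 0.65 (adjusted p 0.892). Over all fits with 1 mouse left out the value for 1810009J06Rik ran from 1.94 to 4.80, so its SE is not read as the spread between mice. What underlies the difference was not tested.

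Gm2663 was also found outside the T cells that were compared. In a cluster of 297 cells with a median of 676 UMIs, which grouped with B cells, 15 cells (5.05%, 2.85 to 8.19%) had Gm2663, against 0.140% of B-lineage cells. All 15 were among the 164 such cells of p19-/- 3, and the other 4 mice had none in 21, 10, 77 and 25 cells. A UMI of a T cell receptor or CD3 gene was in 14 of the 15, against 62 of the other 282 cells (22.0%), and a B cell gene was in 14 of the 15 as well. The source of this RNA was not tested.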

How the results depend on the processing

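No genotype call was made for either gene in the fits as designed, and some alternatives changed that. Without a filter on low counts the log2 difference of 1810009J06Rik was 1.34 in all T cells, 2.03 in effector-memory-like and -1.61 in Tfh-like cells, and that of Gm2663 1.07 in effector-memory-like cells, now past the threshold (edgeR adjusted p 1.32e-19, 1.75e-26, 0.0257 and 5.13e-10). For 1810009J06Rik in all T cells the difference hardly moved from 1.35, while its SE fell from 0.75 to 0.14. These p-values therefore do not measure the spread between mice and are not read as genotype differences. Sex as a covariate, which rests on the 1 male mouse, gave 1810009J06Rik 2.36 in effector-memory-like cells (adjusted p 0.00357), with 47 genes called in place of 30. With cells with a BCR contig left out, Gm2663 in Tfh-like cells was 0.26, and 1810009J06Rik could not be fitted there. The Trbv1 difference lost its call for Gm2663 under DESeq2 (-5.33, larger in size than -4.38) and without Trbv2 and Trbv3 cells (-2.42), and for 1810009J06Rik without the mouse block (-9.63 in place of -9.58, adjusted p 1.00; fitted values against a group at 0 are no bound). Within classes the Il7r difference was -0.614 points in Tfh-like cells and the Cxcr3 difference -1.30 points in effector-memory-like cells. The Trbv2 and Trbv3 difference of 15.4 points was 24.1 points within effector-memory-like cells.

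The shared numbers 1 and 2 of the genotypes name different mice, and their deviations correlated at r = 0.06 and 0.08, so they do not pair the samples. With the replicate block, which leaves p19-/- 3 without a partner, 1810009J06Rik was 1.29, 1.67 and -2.33 and Gm2663 0.47, 1.39 and -0.55 in all T, effector-memory-like and Tfh-like cells, all past the threshold. For 1810009J06Rik in all T cells the SE was 0.15, against 0.75 in the main fit at a similar difference of 1.35. The block leaves too few mice to estimate the spread, so these calls are not read as genotype differences. The number of genes called was 611, 69 and 237 in place of 45, 30 and 72. Without a filter it was 341, 97 and 245, and for Trbv1 38 in place of 9, with 1 under DESeq2 and 1 without the mouse block.

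Leaving out each mouse in turn gave 1810009J06Rik -0.06 to 1.83 in all T, 0.38 to 2.53 in effector-memory-like and -2.37 to -1.20 in Tfh-like cells, and Gm2663 -0.20 to 0.97, -0.34 to 3.02 and -0.46 to 0.17. Genes called were 9 to 64, 15 to 36 and 42 to 84. The sign turned without p19-/- 1, except for 1810009J06Rik in either class, and for Gm2663 in all T cells also without WT 2 (-0.20). The Trbv1 differences stayed at -9.77 to -9.01 and -5.28 to -3.87, with 4 to 14 genes called. The interaction was 1.94 to 4.8 for 1810009J06Rik and -0.30 to 2.98 for Gm2663, with 8 to 26 genes called, and Gm2663 passed without p19-/- 3 (1.86, adjusted p 6.60e-16) and was below 0 without p19-/- 1 (-0.30) and WT 2 (-0.06). The genotype difference in share was -0.0947 to 1.93 points, negative without WT 2, the Il7r difference -0.449 to 1.47 points, negative without p19-/- 2, and the Cxcr3 difference 2.90 to 4.68 points. Shares by class kept within 1 SD under all 8 alternatives each. The cause was not tested where none is given.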

Other observations

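Spp1, the gene of the secreted protein osteopontin, was looked at after its values were seen. It was found in 43.3%, 37.5% and 62.2% of the cells positive for either gene in p19-/- 1, 2 and 3 and in none of the 40 and 22 such cells of WT 1 and 2. Among other T cells it was in 12.9%, 9.84% and 9.31%, and in 0.256% and 0.399%. Spp1 was a leading gene of the Apoc4 Ctsl and Il21 Spp1 clusters, so this in part restates cluster. Within Tfh-like cells of p19-/- 1, 2 and 3 it was in 61.5%, 71.4% and 56.0% against 16.4%, 15.0% and 12.6%. In effector-memory-like cells it was 38.5%, 16.7% and 85.7% against 19.1%, 16.4% and 24.2%, from 6 to 13 positive cells per mouse. Among WT Tfh-like cells without either RNA it was in 0.262% and 0%, so Spp1 in the cluster name rests on p19-/- cells.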
